A study of Mus musculus with 8 samples.

Results

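The genes described here are 33 genes by which endothelial cells, the cells that line the inside of every blood vessel, are commonly recognised. They were chosen by name, but with earlier results of these data known. Each was read from the probe set (the group of short probes on the array that reports 1 transcript) with the highest mean over all 8 arrays. All 33 had a probe set annotated to that gene alone, of 18193 genes so annotated, and all 33 were bright enough to be tested, of 12176 genes tested.

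Endothelial cells form a single layer between blood and vessel wall. They sense vascular endothelial growth factor (VEGF) through receptor kinases, hold together through junction proteins, keep blood from clotting and set vessel tone by releasing nitric oxide and endothelin to the smooth muscle beneath them. In the aorta they line the lumen, and further endothelial cells are found in the small vessels of the adventitia, in lymphatics and in the fat around the vessel.

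The study measured messenger RNA with Affymetrix arrays in the aorta of 4 month-old mice. Control mice carried the SRF-flex2neo allele, a conditional allele of the serum response factor gene (Srf). Mutant mice carried SRF-flex2neo and SM22CreERT2ki/+, a tamoxifen-activated Cre recombinase knocked into 1 allele of the smooth muscle gene Tagln (SM22), and are labelled as a smooth muscle specific SRF knockout. All mice of both groups received 1 mg tamoxifen intraperitoneally for 3 days and were killed 8 days after injection, so the controls had the drug and the conditional allele but no Cre. The promoter that drives the Cre is that of smooth muscle, not of endothelium, and the mutants differ from the controls by the Cre and its knocked-in allele as well as by the deletion.

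There were 4 control and 4 mutant arrays, in 2 title sets. Controls 1 and 2 were in set 1 together with mutants 1 and 2. The remaining controls 3 and 4 were in set 2 together with mutants 3 and 4. The labels explain neither the set number nor whether each array came from its own mouse. The p-values therefore measure only how far these arrays scatter, a scatter that may be technical. Array medians lay between 3.72 and 3.98 on the log2 scale, and the number of arrays limits the precision. Mutant 2 stood apart: it correlated with the other arrays at 0.926 to 0.952 across the probe sets tested, against 0.965 or more among the other 7. Srf, the targeted gene, was at 10.52, 10.20, 10.15 and 10.34 in controls 1 to 4 and at 10.21, 9.54, 10.32 and 10.34 in mutants 1 to 4 in its brighter probe set, so the groups overlapped (difference -0.20, SE 0.19). Whether that probe set lies within the deleted sequence is not stated in the labels. Smooth muscle markers had values near the top of the scale, with Acta2 at 15.33 to 15.40 and Tagln at 14.89 to 15.37.

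Most endothelial genes were higher in the mutant aorta, but none passed the test across all genes. Of the 33, 30 were higher and 3 (Ace, Aqp1 and Erg) lower in mutants, where 44.9% of all genes tested were higher. The median difference, mutant minus control, was 0.81 on the log2 scale (a difference of 1 is 2-fold), against -0.02 for all genes. At a limma p adjusted over all probe sets under 0.05, 0 of the 33 were called, as was 0% of all genes tested, and the lowest adjusted p of the group was 0.328 (Mmrn2). At an unadjusted limma p under 0.05, 17 were higher, against a background of 5.8% of all genes, and 0 were lower, against 4.6%. Differences, standard errors (SE) and p-values are from limma with the set as a term. In RNA of whole tissue, fewer or more cells of a type and less or more RNA per cell cannot be told apart.

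The groups overlapped for most members. All 4 mutants lay above all 4 controls in 3 genes, Eng, Nos3 and Ets1, where 2.06% of all genes did so. No member had all 4 mutants below all 4 controls, against 1.77% of all genes. Both mutants lay above both controls in each set in 13 members, against 5.49% of all genes. These were Eng, Pecam1, Cdh5, Cldn5, Icam2, Clec14a, Egfl7, Mmrn2, Vwf, Procr, Nos3, Ramp2 and Ets1.

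**Figure D1:**
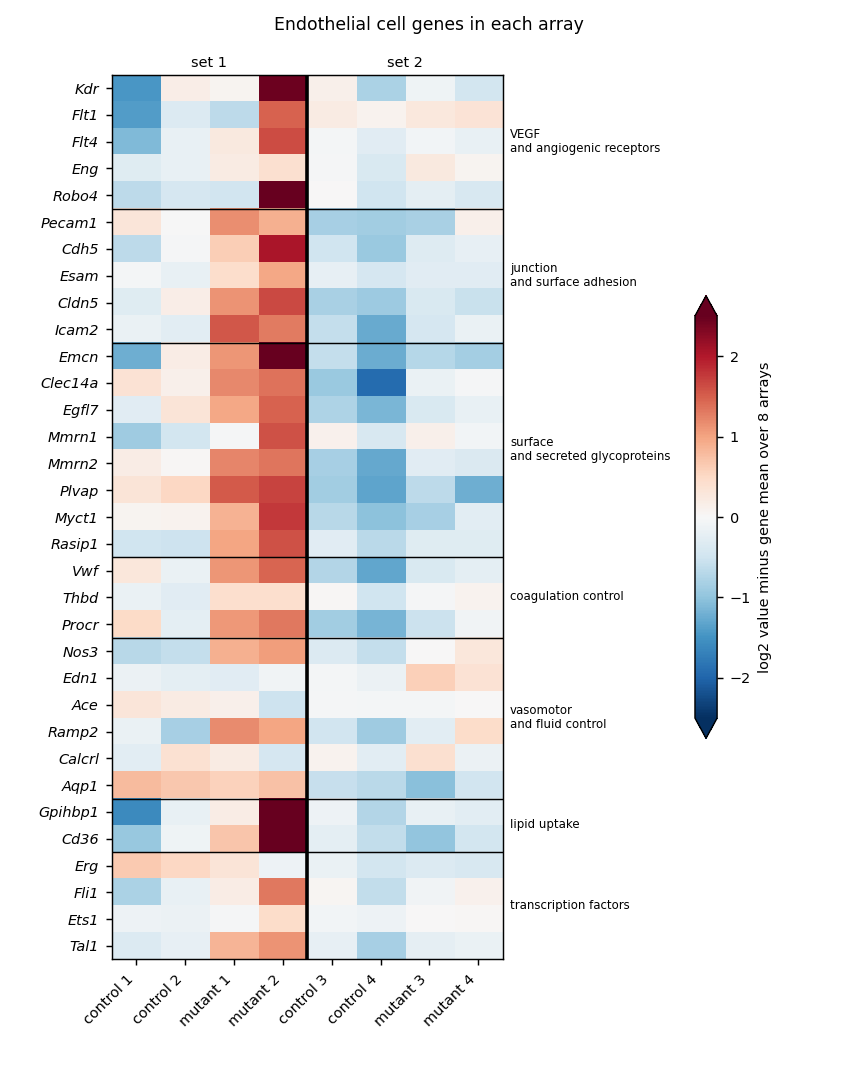
Heat map of the 33 endothelial genes (rows, grouped by role) in the 8 arrays (columns, set 1 left and set 2 right), as the log2 value minus the gene's mean over the 8 arrays, with colours saturating at the ends of the scale. Mutant 2 was the highest array for 25 of the 33 genes and control 4 the lowest for 19.

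The VEGF and other angiogenic receptors were all higher in mutants in their means, with differences from 0.45 (Eng) to 0.98 (Kdr). Eng, which encodes endoglin, a co-receptor for the transforming growth factor beta family, was at 8.88, 9.00, 9.15 and 8.81 in controls 1 to 4 and at 9.39, 9.59, 9.43 and 9.25 in mutants 1 to 4. Every mutant exceeded every control, and the difference was 0.45 (SE 0.11, limma adjusted p = 0.384), a 1.37-fold higher level. The other receptors showed a different layout of arrays.

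Kdr, the main signalling receptor for VEGF, was at 5.15, 6.77, 6.72 and 5.80 in controls and at 6.66, 9.06, 6.49 and 6.15 in mutants. Mutant 2 alone lay above the controls, and the other mutants lay within their range. The difference of 0.98 (SE 0.68) was 0.32 without mutant 2. Flt4, the receptor for VEGF-C that is typical of lymphatic endothelium, was at 4.39, 5.31, 5.44 and 5.21 in controls and at 5.75, 7.13, 5.43 and 5.31 in mutants, with both set 1 mutants above every control and both set 2 mutants among them. The difference of 0.82 (SE 0.44) was 0.39 without mutant 2. Flt1, which encodes a VEGF receptor that also acts as a decoy, differed by 0.71, and by 0.18 without mutant 2. Robo4, a guidance receptor that stabilises vessels, differed by 0.79, and by -0.02 without mutant 2, in which it stood at 6.87 against 3.67 to 3.91 in the other mutants and 3.50 to 4.16 in controls.

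All 5 junction and adhesion genes had higher means in mutants, with a median difference of 1.46 in set 1 and 0.46 in set 2, and none passed the adjusted p. Icam2, an adhesion molecule of resting endothelium, was at 7.94, 7.84, 7.51 and 6.85 in controls and at 9.66, 9.41, 7.68 and 7.93 in mutants. Each set's mutants lay above its controls, but mutant 3 lay below controls 1 and 2 of the other set, and mutant 4 below control 1. The difference was 1.13 (SE 0.25, limma adjusted p = 0.384), 2.20-fold. Cldn5, the tight junction protein claudin 5, was at 7.69, 8.16, 7.18 and 7.09 in controls and at 9.11, 9.65, 7.62 and 7.43 in mutants, a difference of 0.92 (SE 0.25). Set 1 mutants were above every control, and set 2 mutants only above the controls of their own set and below those of set 1. Pecam1, the junction molecule CD31 that leukocytes and platelets also carry, was at 10.54, 10.23, 9.40 and 9.37 in controls and at 11.40, 11.13, 9.43 and 10.37 in mutants (difference 0.70, SE 0.21). Mutant 3 exceeded its set's higher control by little, while mutant 4 stood well above. Cdh5, the endothelial cadherin, differed by 1.06 (SE 0.39) and by 0.66 without mutant 2, and Esam, an adhesion molecule of endothelial junctions and platelets, by 0.43 (SE 0.19) and by 0.24 without mutant 2. In set 2 Esam differed by 0.03 (SE 0.18), with both mutants between the controls.

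All 8 genes grouped as surface and secreted glycoproteins, which include the cytoplasmic Rasip1, had higher means in mutants, from 0.68 (Plvap) to 1.44 (Emcn). Mmrn2, which encodes multimerin 2 of the endothelial matrix, had the smallest limma p of the 33. It was at 10.30, 10.14, 9.28 and 8.83 in controls and at 11.34, 11.45, 9.84 and 9.75 in mutants. Both sets had mutants above controls, by 1.17 in set 1 and 0.74 in set 2, with a difference of 0.96 (SE 0.13, 95% confidence interval 0.64 to 1.27, limma adjusted p = 0.328). All 4 probe sets of Mmrn2 lay between 0.88 and 0.98.

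Clec14a, a lectin-like receptor that binds Mmrn2, was at 7.06, 6.82, 5.78 and 4.78 in controls and at 7.91, 8.05, 6.53 and 6.67 in mutants. It was the single one of the glycoprotein group with a larger difference in set 2 (1.32) than in set 1 (1.04), and the whole difference was 1.18 (SE 0.22, limma adjusted p = 0.376). Its dimmer probe set gave 0.53. Egfl7, a secreted factor of the endothelial matrix, was at 7.48, 8.08, 6.98 and 6.62 in controls and at 8.72, 9.24, 7.39 and 7.58 in mutants, a difference of 0.94 (SE 0.21). The mutants lay above the controls within each set. The probe set is of a type that can bind related transcripts, and the other 3 probe sets of Egfl7 gave 0.39 to 0.85. The Egfl7 gene also holds the endothelial microRNA miR-126, which these values do not report. It is shown because it is transcribed together with Egfl7, with the seed (bases 2 to 8) in capitals, from RefSeq (GRCm38.p6, chromosome 2, 26591402 to 26591423, plus strand).

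mmu-miR-126a-3p: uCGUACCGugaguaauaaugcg

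Emcn, the sialomucin endomucin of capillary and venous endothelium, had the highest difference of the 33. It was at 4.16, 5.57, 4.78 and 4.14 in controls and at 6.48, 8.73, 4.67 and 4.54 in mutants. Both mutants of set 1 stood above all controls and both of set 2 among them, which left the difference of 1.44 (SE 0.72, 95% confidence interval -0.27 to 3.15) within the spread between arrays. It was 0.73 without mutant 2. Rasip1, which links Ras-family signals to lumen formation, differed by 0.98 (SE 0.35), Myct1, an endothelial membrane protein, by 0.77 (SE 0.29; 0.50 without mutant 2), and Plvap, the diaphragm protein of fenestrated endothelium, by 0.68 (SE 0.25). Mmrn1, found in platelets and lymphatic endothelium, differed by 0.81 (SE 0.42) and by 0.36 without mutant 2.

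The genes of coagulation control were all higher in mutants. Vwf, which encodes the von Willebrand factor that endothelial cells and platelets store, was at 11.28, 10.84, 10.27 and 9.70 in controls and at 12.10, 12.45, 10.61 and 10.75 in mutants. Set 1 mutants exceeded every control, and set 2 mutants exceeded only the controls of their own set, with a difference of 0.95 (SE 0.19, limma adjusted p = 0.376). Procr, the receptor of protein C, differed by 0.89 (SE 0.20), and Thbd, the thrombin receptor thrombomodulin, by 0.46 (SE 0.14).

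The vasomotor and fluid genes went in both directions. Nos3, the endothelial nitric oxide synthase, was at 7.79, 7.88, 8.14 and 7.88 in controls and at 9.36, 9.52, 8.48 and 8.75 in mutants. It had a narrow control range (SD 0.15, n = 4) that all mutants exceeded. The difference of 1.10 (SE 0.21, limma adjusted p = 0.376) corresponds to 2.15-fold. In set 1 alone it was 1.60 (adjusted p = 0.027), the single call among the 33 within that set, where 0.386% of all genes were called. In set 2 it was 0.60 (adjusted p = 1.00).

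Ramp2, the partner that turns the Calcrl receptor into one for adrenomedullin, was at 8.72, 8.05, 8.40 and 8.00 in controls and at 10.06, 9.87, 8.62 and 9.35 in mutants. Mutant 3 lay just below control 1 and the other mutants above every control, with a difference of 1.18 (SE 0.26, limma adjusted p = 0.384), or 2.27-fold. Calcrl itself, at 10.72 in controls and 10.75 in mutants on average, differed by 0.03 (SE 0.23, 95% confidence interval -0.51 to 0.57), or 0.20 without mutant 2. Edn1, the vasoconstrictor endothelin 1, was at 8.80, 8.70, 8.91 and 8.80 in controls and at 8.66, 8.87, 9.55 and 9.31 in mutants. Its mutants were above the controls in set 2 (0.57) and not in set 1 (0.01), with a difference of 0.29 (SE 0.14).

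Both lower members of this role are expressed outside endothelium too. Ace, the angiotensin converting enzyme, was at 9.07, 8.97, 8.74 and 8.72 in controls and at 8.89, 8.26, 8.72 and 8.78 in mutants. Mutant 2 alone lay outside the range of the controls, and the difference of -0.21 (SE 0.16) was -0.04 without it. Aqp1, a water channel also found in red cells, was at 12.69, 12.56, 11.32 and 11.21 in controls and at 12.47, 12.62, 10.85 and 11.42 in mutants. It separated the sets, not the genotypes, and the difference was -0.10 (SE 0.12).

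The genes of lipid uptake belong to capillaries of fat and muscle. Gpihbp1, which holds lipoprotein lipase on the capillary wall, was at 5.82, 7.22, 7.28 and 6.67 in controls and at 7.59, 10.33, 7.23 and 7.14 in mutants. Mutant 2 stood far above all other arrays, and mutants 3 and 4 lay among the controls. The difference was 1.32 (SE 0.73), and 0.55 without mutant 2. Cd36, a fatty acid receptor that fat cells and macrophages also express, differed by 0.95 (SE 0.64), by 0.31 without mutant 2, by 2.20 in set 1 and by -0.30 in set 2.

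The transcription factors were Erg, Fli1 and Ets1, which share the ETS type of DNA-binding domain, and Tal1, a basic helix-loop-helix factor of endothelial and blood precursors. Tal1 was at 4.04, 4.18, 4.18 and 3.56 in controls and at 5.23, 5.51, 4.17 and 4.22 in mutants. Both mutants of set 1 exceeded all controls, mutant 3 did not, and the difference was 0.79 (SE 0.23, limma adjusted p = 0.448). Fli1, also a factor of blood cells, differed by 0.77 (SE 0.34), and by 0.45 without mutant 2. Erg, the ETS factor most typical of endothelium, had the lowest difference of the 33. It was at 9.91, 9.78, 9.09 and 8.80 in controls and at 9.57, 9.13, 8.91 and 8.85 in mutants, so both mutants lay below both controls in set 1 and the groups overlapped in set 2. The difference was -0.28 (SE 0.14, limma adjusted p = 0.564), or -0.15 without mutant 2, and its dimmer probe set gave -0.31. Ets1 differed by 0.24 (SE 0.12), or 0.12 without mutant 2, in its brightest probe set, with control values of 8.96 to 9.04 and mutant values of 9.09 to 9.58. Its other 3 probe sets gave 0.06, -0.33 and -0.93, so the direction of Ets1 depends on the probe set.

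Upstream sequences were searched for the core of ETS sites because 3 of the members encode ETS factors. RefSeq promoter windows (GRCm38.p6) were at hand for 20 of the 33 members, and the 250 bases before each annotated start were read on both strands. The motif CAGGAAG was present for 6 of the 20 members (Calcrl, Egfl7, Emcn, Erg, Rasip1 and Robo4) and for 12.1% of the 27025 genes with a window. The motif CCGGAAG was present for 0 of 20 and 7.83% of genes. The short core GGAA, which both contain, was present for 19 of 20 and 94.2% of genes. The SRF site known as the CArG box was present for 0 of 20 and 1.62% of genes. A match describes letters only. Of the 6 members with CAGGAAG, the windows of the 4 with the highest differences, chosen with those values known, are shown; those of Calcrl (0.03) and Erg (-0.28) are not. They are written from 5′ to 3′ on the strand of the gene, with the motif, or its complement CTTCCTG where it lies on the other strand, in capitals. They are Egfl7 (chr2:26580833-26581082, plus strand), Emcn (chr3:137340828-137341077, plus strand), Rasip1 (chr7:45627287-45627536, plus strand) and Robo4 (chr9:37401722-37401971, plus strand). For Egfl7, which has more than 1 annotated start, the first is shown. The first base of the motif lies 90 and 49 bases before the start in Egfl7, 174 in Emcn, 91 in Rasip1 and 50 in Robo4. The windows of Robo4 and Emcn reach past the first base of the gene locus, at 37401902 and 137341062. The motif of Robo4 lies within its locus, and that of Emcn before it. Of these genes, Egfl7 was above its set's controls in both sets, while Robo4 stood out in mutant 2 alone.

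Egfl7: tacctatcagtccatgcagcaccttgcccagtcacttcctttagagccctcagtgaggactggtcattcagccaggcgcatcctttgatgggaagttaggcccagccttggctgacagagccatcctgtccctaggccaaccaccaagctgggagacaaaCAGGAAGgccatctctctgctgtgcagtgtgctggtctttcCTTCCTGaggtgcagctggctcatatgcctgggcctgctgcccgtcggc
Emcn: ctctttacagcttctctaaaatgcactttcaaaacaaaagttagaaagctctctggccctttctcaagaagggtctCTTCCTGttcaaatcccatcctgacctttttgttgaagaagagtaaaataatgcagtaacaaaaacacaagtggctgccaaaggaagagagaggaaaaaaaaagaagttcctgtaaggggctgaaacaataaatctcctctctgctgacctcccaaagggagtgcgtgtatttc
Rasip1: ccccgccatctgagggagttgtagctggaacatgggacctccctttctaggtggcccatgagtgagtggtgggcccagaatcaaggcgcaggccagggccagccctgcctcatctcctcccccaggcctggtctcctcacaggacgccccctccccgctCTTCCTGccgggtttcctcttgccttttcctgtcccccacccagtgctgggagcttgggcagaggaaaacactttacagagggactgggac
Robo4: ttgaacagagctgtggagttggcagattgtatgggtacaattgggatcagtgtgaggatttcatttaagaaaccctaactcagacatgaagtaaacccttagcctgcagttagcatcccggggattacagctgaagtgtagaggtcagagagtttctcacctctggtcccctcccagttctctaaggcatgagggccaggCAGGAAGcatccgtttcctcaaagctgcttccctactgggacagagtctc

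**Figure D2:**
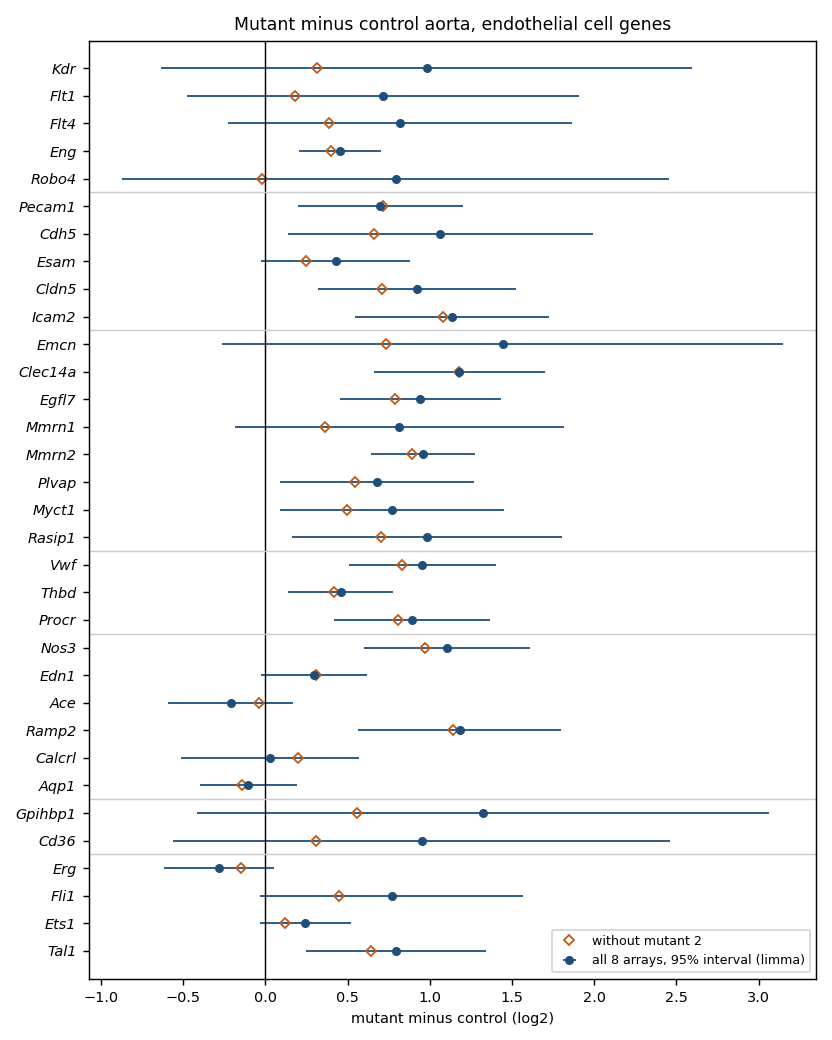
Mutant minus control difference of each gene (log2, horizontal axis), as limma's estimate over all 8 arrays with its 95% confidence interval (circles and bars) and without mutant 2 (open diamonds). The widest intervals belong to Emcn, Gpihbp1, Robo4, Kdr and Cd36, whose estimates also move most when mutant 2 is left out.

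Other probe sets of the same genes mostly went the same way. Of the 33 genes, 15 had more than 1 probe set, with 27 dimmer ones in all, of which 22 were tested. Of those, 19 had the sign of the brightest probe set and 3 the other, namely 2 of Ets1 and 1 of Calcrl (-0.13). None of the 22 passed an adjusted limma p of 0.05.

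The size of the difference varied between the sets. The median over the 33 was 1.24 in set 1 and 0.27 in set 2, and 29 genes were higher in mutants in each set, 27 of them in both. At an unadjusted limma p under 0.05, 24 were higher in set 1, against 8.32% of all genes, and 8 in set 2, against 1.62%. The difference was lower in set 2 than in set 1 for 28 of the 33, the exceptions being Clec14a, Edn1, Ace, Calcrl and Erg. For the test of the interaction of genotype and set, 0 of the 33 passed an adjusted limma p of 0.05, where 0.0575% of all genes did. At an unadjusted p under 0.05 the difference was smaller in set 2 for 8 members, against 3% of all genes, and larger for 1, Edn1, against 2.17%. Without mutant 1, 11 members passed an adjusted p of 0.05 for the interaction, where 11.9% of all genes did in that fit, and without any other array 0 did. In that fit mutant 2 is the only mutant array of set 1, and its spread is taken to be that of the other groups. The median of set 2 rested on control 4, the lower of the 2 controls of that set in all 33 genes, and was 0.04 without control 4 and 0.51 without control 3.

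**Figure D3:**
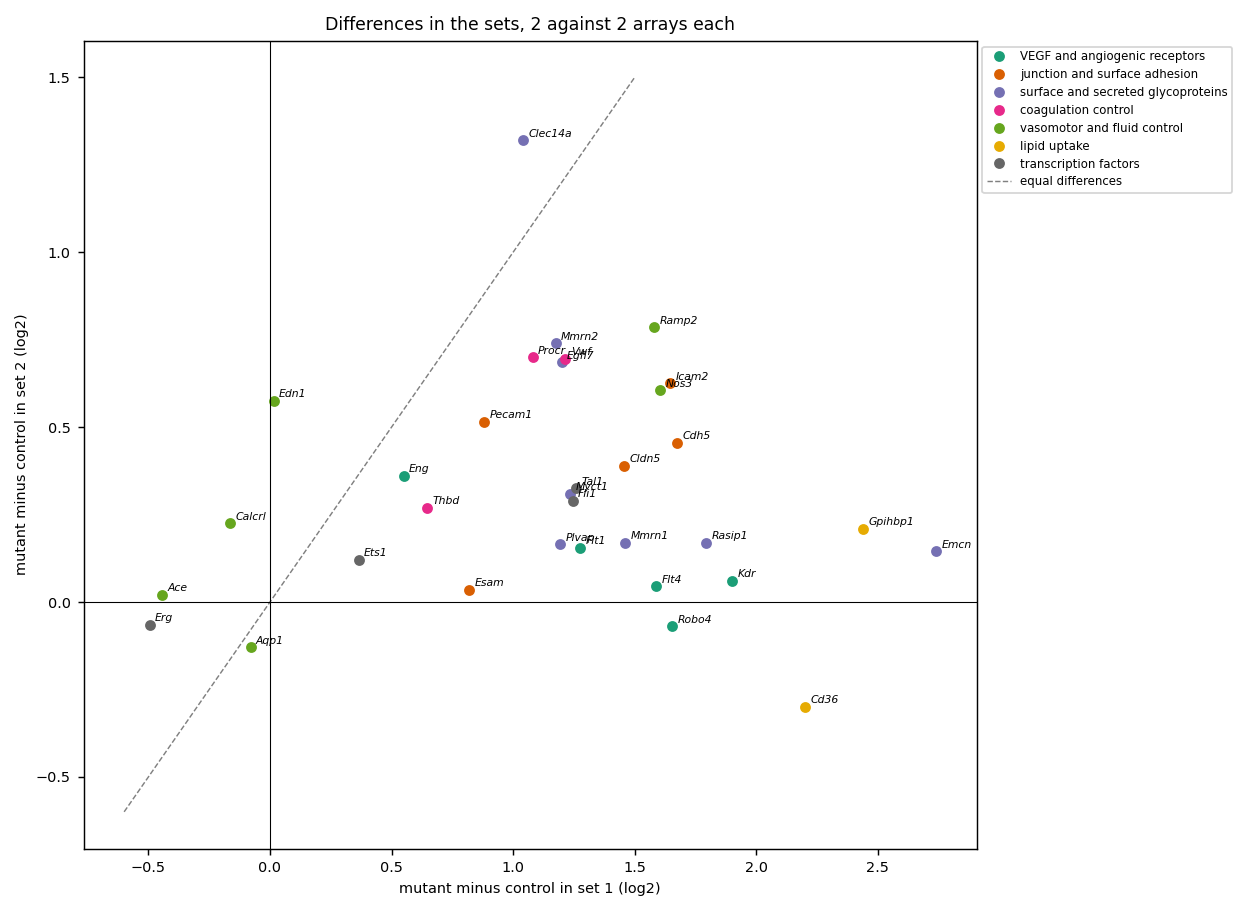
Mutant minus control difference in set 1 (horizontal axis) and in set 2 (vertical axis), both log2 and each from 2 mutant and 2 control arrays, with 1 point per gene coloured by role and a dashed line of equal differences. Of the 33 points, 28 lie below the line, Clec14a, Edn1, Ace, Calcrl and Erg lie above it, and Emcn, Gpihbp1 and Cd36 have the largest differences in set 1.

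Mutant 2 stood above the other arrays in most endothelial genes. Against the mean of its set's 2 controls, the median over the 33 genes was 1.46 in mutant 2, 0.94 in mutant 1, 0.27 in mutant 4 and 0.25 in mutant 3. In mutant 2, 29 genes lay above both controls of the set, in mutant 1 25, in mutant 4 21 and in mutant 3 18. Of all genes tested, 33.3% did so in mutant 2, 29.1% in mutant 1, 31.8% in mutant 4 and 35.8% in mutant 3. In 10 genes mutant 2 exceeded mutant 1 by over 1 on the log2 scale, a limit set after the values were seen. These were Kdr, Flt1, Flt4, Robo4, Cdh5, Emcn, Mmrn1, Gpihbp1, Cd36 and Fli1, with a median of 2.74 above the set's controls in mutant 2 and of 0.80 in mutant 1, and with differences of -0.30 to 0.45 in set 2. The other 23 genes had medians of 1.20 in mutant 2 and 0.96 in mutant 1. The wider gap between mutants 2 and 1 in the 10 genes follows from the way they were picked. Without mutant 2, the median of all 33 differences was 0.50, 29 were higher in mutants, and 16 had an unadjusted limma p under 0.05 with a higher value in mutants, against 5.7% of all genes in that fit.

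The sets also differed in the level of the endothelial genes themselves, averaged over both genotypes. The larger mutant differences of set 1 enter that average. In controls alone the mean level of the 33, relative to all arrays, was -0.32 and -0.07 in set 1 and -0.34 and -0.73 in set 2. In mutants it was 0.59 and 1.30 in set 1 and -0.25 and -0.18 in set 2. In the set term of the limma fit, 12 of the 33 were lower in set 2 at an adjusted p under 0.05, against 7.79% of all genes, and 0 were higher, against 8.81%. The 12 were Pecam1, Cldn5, Icam2, Clec14a, Egfl7, Mmrn2, Plvap, Myct1, Vwf, Procr, Aqp1 and Erg. Plvap had the largest such difference, -2.02 (adjusted p = 0.00272), followed by Clec14a with -1.52 (adjusted p = 0.00476). Plvap stood at 8.96 and 9.16 in the controls of set 1 and at 7.77 and 7.33 in those of set 2, with no overlap. Nos3 (-0.32), Eng (-0.05) and Ets1 (-0.08) were among those that did not pass. The receptors Kdr, Flt1 and Flt4 differed between sets by -0.62, 0.46 and -0.30 and did not pass either. Cardiac muscle markers moved with the set too, with 7 of 9 higher in set 2 at an adjusted p under 0.05. Their mean level relative to all arrays was -2.50 to -0.69 in set 1 and 0.69 to 2.59 in set 2, and their part in the set difference was not tested.

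Endothelial genes outside the 33 gave similar values, but not all of them are particular to endothelium. Cd34 is also in the fibroblast list used below, and Fabp4 also in the fat cell list. Of 58 tested from 5 lists of general, arterial, venous, lymphatic and capillary genes, 52 were higher in mutants, the median was 0.80, 25 had an unadjusted limma p under 0.05 with a higher value (5.8% of all genes) and 0 with a lower one (4.6% of all genes), and 0 passed the adjusted p. Their median was 1.22 in set 1, where 53 were higher, and 0.24 in set 2, where 42 were higher. In the general list 30 of 31 were higher (median 0.99), with Ptprb, a phosphatase of the endothelial receptor Tek, at 0.99 (SE 0.13, adjusted p = 0.291), the factor Sox18 at 1.25 (SE 0.17, adjusted p = 0.291) and the junction protein Ecscr at 0.97 (SE 0.17). In the arterial list 9 of 12 were higher (median 0.55), with the kinase Bmx at 1.20, the co-receptor Nrp1 at 0.84 and the connexin Gja4 at 0.63. The 3 lower ones, named after their values were seen, were Unc5b (-0.21), Efnb2 (-0.04) and Jag1 (-0.02). In Unc5b both mutants lay below both controls in each set. Cxcr4, also named so, was at 8.18 in mutant 2 and at 2.76 to 3.43 in the other arrays. Its control mean of 2.79 lay below 2.97, the lowest mean tested. The arterial median was 0.845 in set 1, where 9 were higher, and 0.19 in set 2, where 11 were higher. In the venous list 6 of 7 were higher (median 0.75), with Vcam1 at 0.75, the selectin Selp at 1.21 and the factor Nr2f2 at 0.36. The venous median was 1.39 in set 1, where 7 were higher, and -0.03 in set 2, where 3 were higher. At an unadjusted limma p under 0.05 in set 2, 1 was higher, as were 197 of all 12176 genes tested. At that p 2 were lower, as were 118 of all genes tested. Those 2, named after their values were seen, were Ephb4 (-0.42 in set 2) and Lrg1 (-0.93 in set 2).

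The lymphatic and capillary lists share members with the 33. In the lymphatic list 6 of 7 were higher (median 0.57), with the hyaluronan receptor Lyve1 at 0.54 beside Mmrn1 and Flt4. The lymphatic median was 0.885 in set 1, where 6 were higher, and 0.045 in set 2, where 5 were higher. Named after their values were seen, Foxc2 was lower (-0.37) and Prox1, at 2.92 to 3.17 in all arrays, differed by 0.03. Reln, also named so, was at 8.54 in mutant 2 and at 2.23 to 2.86 in the other arrays. Its control mean of 2.69 lay below 2.97, the lowest mean tested. In the capillary list 9 of 9 were higher, with a median of 0.95 over both sets, of 1.90 in set 1, where 9 were higher, and of -0.19 in set 2, where 3 were higher. Lpl, the lipoprotein lipase that Gpihbp1 binds, differed by 1.23 (SE 0.59), by 2.63 in set 1 and by -0.18 in set 2. In a list of endothelial growth factors, which also holds Angpt1, Angpt2 and Fgf2, 6 of 9 were higher, with a median of 0.16 (Vegfc 0.66, Vegfa 0.52, Vegfd -0.09). The median of that list was 0.29 in set 1, where 6 were higher, and -0.02 in set 2, where 4 were higher. None of these lists had a gene that passed the adjusted p.

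Markers of several other cell types moved with the endothelial genes. The level of a list is given as the mean of its genes relative to their means over the 8 arrays, and, as a summed level, as the sum of their values on the linear scale. The endothelial genes stood at -0.32, -0.07, -0.34 and -0.73 in controls 1 to 4 and at 0.59, 1.30, -0.25 and -0.18 in mutants 1 to 4. Mutants 3 and 4 were above the controls of set 2 and below control 2 of set 1. Their summed level was 11883 to 21208 in controls and 15159 to 42242 in mutants.

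Fat cell markers (8 of 9 tested, 7 higher) stood at -1.11, -0.64, 0.08 and -0.22 in controls and at 0.82, 2.05, -0.85 and -0.13 in mutants, with a summed level of 20023 to 32539 in controls and 21660 to 83348 in mutants. The brightest were Fabp4, also a gene of capillaries, and Plin4 (differences 0.45 and -0.14). The fat markers were highest in mutant 2, and in set 2 their median difference was -0.47, with 1 of 8 higher in mutants. Nerve and Schwann cell markers (6 of 6 tested and higher, brightest Pmp22 at 0.24 and Mbp at 2.83) stood at 4.09 in mutant 2 and at -1.13 to -0.34 in the other 7 arrays. Their summed level was 3310 to 4666 in controls and 4096 to 18044 in mutants. In set 2, 3 of the 6 were higher in mutants. Named after their values were seen, Th and Dbh were at 9.92 and 11.66 in mutant 2. In the other arrays Th was at 2.15 to 2.20 and Dbh at 2.77 to 3.19. Their control means, 2.18 and 2.95, lay below 2.97, the lowest mean tested, so their place in the count rests on mutant 2.

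Fibroblast markers (12 of 12 tested, 12 higher) had a median of 1.02 and stood at -0.92 to 0.33 in controls and 0.39 to 0.58 in mutants, with summed levels of 64660 to 89344 and 86877 to 98701. Their brightest genes were the collagen gene Col3a1 (0.05) and Gsn, which encodes the actin-severing protein gelsolin (0.45). Macrophage markers (12 of 12 tested, 12 higher) had a median of 0.99 and stood at -0.88 to 0.02 in controls and 0.10 to 1.01 in mutants, with summed levels of 1060 to 2244 and 2281 to 4012. Their brightest genes were Lyz2 (1.15) and C1qb (0.80). Platelet markers (4 of 8 tested, 4 higher, brightest Pf4 at 1.02 and Ppbp at 1.43) stood at -1.80 to 0.25 in controls and -0.50 to 1.50 in mutants, with summed levels of 188 to 655 and 507 to 1733. Platelets also express Vwf and Mmrn1.

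Smooth muscle markers (10 of 10 tested) were lower in all 10 genes, with a median of -0.26 and a mean level of 0.10 to 0.22 in controls and -0.20 to -0.06 in mutants. Their summed level was 197194 to 207726 in controls and 162686 to 184349 in mutants, and the brightest were Acta2 (-0.01) and Tagln (-0.29). In mutants 1 allele of Tagln carries the knocked-in Cre. The part of that allele, or of the Srf deletion in smooth muscle, in these lower values was not tested. Cardiac markers (9 of 9 tested, 4 higher, brightest Ryr2 at -0.17 and Pln at 0.49) had summed levels of 1190 to 12695 in controls and 807 to 7852 in mutants. Red cell markers (3 of 4 tested, 2 higher, brightest Alas2 at 0.79 and Slc4a1 at 0.04) had a median of 0.04. Lymphocyte markers had 7 of 9 genes below the brightness limit, the others being Ptprc (1.79) and Ms4a1 (0.11), and mesothelial markers had 7 of 7 below it, so neither list gave a usable level. The part of these cell types in the differences of the endothelial genes was not tested.

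**Figure D4:**
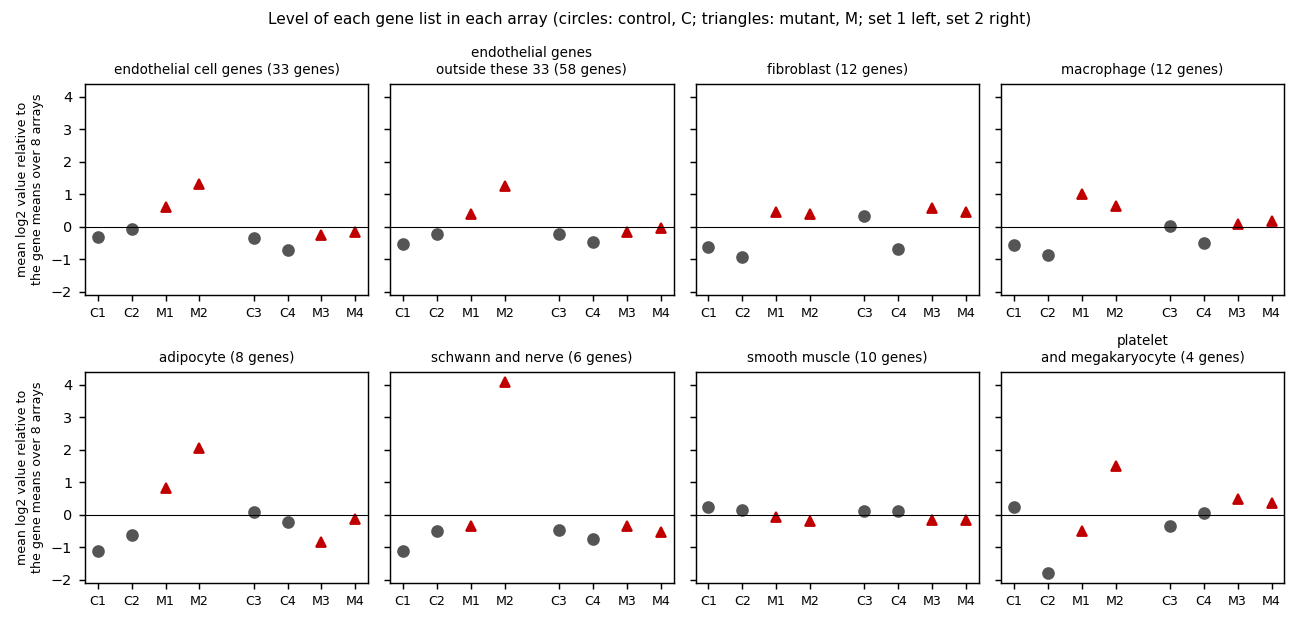
Mean log2 value of 8 gene lists in each array, relative to the gene means over all 8 arrays (C, control, circles; M, mutant, triangles; set 1 on the left of each panel, set 2 on the right). The endothelial, fat and nerve lists are all highest in mutant 2, and the fibroblast and macrophage lists are above every control in all 4 mutants.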

How the data were processed

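For 8 Affymetrix arrays the authors deposited values that were read as log2 from their range (0.9 to 15.82), 1 per probe set. The submitters' processing notes name GCOS, without a version. No source used here states how the authors corrected background, summarized probes or normalized, and values were taken as deposited. Per the labels, arrays were made from 2 ug of total RNA.

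Of 45037 probe sets, 34945 carried 1 gene symbol. The 40% with the lowest mean were left out, which left 27029 probe sets. limma 3.58.1 in R 4.3.3 was fitted across all of them with genotype and set as terms and a mean-variance trend. p-values are two-sided and adjusted by the Benjamini-Hochberg method over all probe sets. Values within a set and the interaction came from a fit with 4 group means. A gene is given by its brightest probe set. Intervals are limma's.

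The 33 genes, the other lists and the settings were chosen with earlier results of these data known. Named with all arrays are, by role, the 3 genes with the smallest p (1 in groups under 5), the lower genes and both extremes; from other lists, the 3 with the smallest p, or the 2 brightest of cell type lists.

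Of simulated probe sets shifted by 0.5, 1, 2 and -1 (200 changed per table of 27029, 3 tables), 21.3%, 62.7%, 88% and 52% were recovered for mutant against control. These shares hold for the simulated tables with that number of changed probe sets. They are not the power to call the endothelial genes. In the measured arrays mutant 2 stood apart and the differences varied between the sets. Figures were drawn with matplotlib 3.10.9.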

Additional observations from a re-analysis of the deposited data

Results flagged for a closer look

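In 4 of the 66 groups of 4 arrays examined (33 genes in each genotype), 1 array lay far from the other 3, and in all 4 it was mutant 2. Chance gives about 1 such group in 20. Robo4 was at 6.87 in mutant 2 and at 3.67 to 3.91 in the other mutants. Gpihbp1 was at 10.33 there and at 7.14 to 7.59 in the others. Mmrn1 was at 6.57 and at 4.90 to 5.10 in the others. Ets1 was at 9.58 and at 9.09 to 9.14 in the others. No control array was set apart in this way for any of the 33 genes.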

How the results depend on the processing

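Leaving out 1 array at a time, the median difference of the 33 genes was 0.50 (without mutant 2) to 1.02 (without control 3), 29 to 30 were higher in mutants, 13 to 19 had an unadjusted p under 0.05 with a higher value, 3 to 7 had all mutants above all controls, 13 to 24 (without control 3) were above the controls in each set, 0 to 11 (without mutant 1) passed the interaction, 11 to 14 were lower in set 2, and 0 to 1 passed the adjusted p. That 1 was Mmrn2 without control 3 (1.09, limma adjusted p = 0.0427), where 11 probe sets of the whole table passed. Leaving out an array can only keep or raise the counts of genes without overlap, whatever the gene. Except where given above, the shares of all genes in these fits were not computed, so the counts have no background beside them. The median was 0.94 to 1.46 in set 1 and 0.04 to 0.51 in set 2 with 1 array of that set left out. In set 1 alone the median was 1.24 and 1 gene passed the adjusted p, and in set 2 alone the median was 0.27, 8 genes had an unadjusted p under 0.05 with a higher value, and Robo4 (-0.07), Cd36 (-0.30) and Ace (0.02) changed sign.

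Without the set term 5 genes had an unadjusted limma p under 0.05 with a higher value. In that fit 1279 of the 27029 probe sets tested had such a p in either direction, against 2580 in the main fit. With the mean of all probe sets of a gene, 1 had all mutants above all controls, and Ets1 changed sign (-0.24). The share of all genes for that count was not computed. Calcrl changed sign with arrays centred on their medians (-0.043), with the mean of its probe sets (-0.049), in set 1 alone (-0.16) and over single arrays left out (-0.12 to 0.20), as did Robo4 (-0.02 to 1.26) and Aqp1 (-0.21 to 0.014). The causes were not tested. Of 655 values of single genes under these settings 640 kept their sign and their side of the threshold. In set 2 the titles share numbers between groups, and with them as a replicate block the count of unadjusted p under 0.05 was 17, the median 0.81 and the lowest adjusted p 0.444, so the pairing changed no call. Of all probe sets tested, 2158 had an unadjusted limma p under 0.05 in either direction with that block. No filter, a filter on 60%, quantile normalization, a fit with no trend, robust variances and array weights changed no count of the 33 by over 1.5 times, and array weights gave a median of 0.60. Centring moved the median of all probe sets from -0.03 to -0.11. The stricter filter left 28 of the 33 genes.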
